A study of Homo sapiens with 16 samples.

Results

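The genes described here are 33 hepatocyte genes for secreted plasma proteins and metabolic enzymes, chosen by name from the 59609 genes of the expression tables. All 33 were listed in both tables. The cells were labelled Huh7, an established human hepatocellular carcinoma line, in all 16 samples. One RNA experiment set 3 samples treated with sorafenib, a kinase inhibitor given against liver cancer, beside 3 treated with DMSO, its solvent. The other set 3 samples with overexpression of MT1G, a zinc- and copper-binding metallothionein, beside 3 with the empty vector (Vec) as control. Open chromatin was mapped by ATAC-seq in 2 DMSO samples (replicates 1 and 2) and 2 sorafenib samples (replicates 3 and 4). The labels gave no dose, time, vector or promoter, and nothing said that replicates were separate cultures, so the p-values measure the spread between these samples, which may be technical.

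Hepatocytes supply most plasma proteins other than antibodies. They secrete carriers such as albumin and transferrin, the apolipoproteins that package fat for transport, and the clotting factors with the inhibitors that hold them in check. They also hold enzymes for making glucose, breaking down amino acids and modifying drugs and sterols. Much of this programme is driven by a circuit of transcription factors that includes HNF4A, FOXA and CEBPA. Differentiated hepatoma lines keep part of it, and Huh7 is widely described as secreting albumin, alpha-fetoprotein and apolipoproteins. The question here was whether the cells carried these transcripts and how the transcripts stood after either treatment.

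The promoters of 6 members are shown first. The sequences below are the 250 bases before the start site in RefSeq (GRCh38.p14), 5′ to 3′ on the strand of the gene, for 2 members with letters of the circuit's factors (AHSG and APOA2), the hepatoma marker AFP and the 3 members with enough reads to be tested. They are AHSG (chr3:186612810-186613059, plus strand), APOA2 (chr1:161223629-161223878, minus strand), AFP (chr4:73435971-73436220, plus strand), RBP4 (chr10:93601236-93601485, minus strand), VTN (chr17:28370308-28370557, minus strand) and APOE (chr19:44905546-44905795, plus strand). Capitals mark CAAAGTCCA, letters of the HNF4 type, TGTTTAC, the core of a FOXA site, and TATAAA, the letters of a TATA box, on either strand.
AHSG: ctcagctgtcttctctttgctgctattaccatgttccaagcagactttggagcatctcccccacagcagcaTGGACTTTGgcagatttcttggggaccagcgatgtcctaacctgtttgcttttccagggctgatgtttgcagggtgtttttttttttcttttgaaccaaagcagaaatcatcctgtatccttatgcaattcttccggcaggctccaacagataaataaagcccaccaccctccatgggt
APOA2: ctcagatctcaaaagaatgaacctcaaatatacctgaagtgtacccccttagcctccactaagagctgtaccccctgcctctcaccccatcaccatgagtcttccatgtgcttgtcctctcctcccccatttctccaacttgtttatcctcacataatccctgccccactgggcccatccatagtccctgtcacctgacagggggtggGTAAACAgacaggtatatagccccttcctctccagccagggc
AFP: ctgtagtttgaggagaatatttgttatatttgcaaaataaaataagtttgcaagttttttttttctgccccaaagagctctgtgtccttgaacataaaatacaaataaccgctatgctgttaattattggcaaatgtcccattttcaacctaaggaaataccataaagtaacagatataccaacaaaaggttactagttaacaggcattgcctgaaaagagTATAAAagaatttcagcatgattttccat
RBP4: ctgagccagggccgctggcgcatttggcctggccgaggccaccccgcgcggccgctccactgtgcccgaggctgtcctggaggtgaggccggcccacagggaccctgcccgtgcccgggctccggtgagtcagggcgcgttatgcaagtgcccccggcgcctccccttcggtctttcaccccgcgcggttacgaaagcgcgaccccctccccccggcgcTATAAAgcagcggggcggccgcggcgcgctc
VTN: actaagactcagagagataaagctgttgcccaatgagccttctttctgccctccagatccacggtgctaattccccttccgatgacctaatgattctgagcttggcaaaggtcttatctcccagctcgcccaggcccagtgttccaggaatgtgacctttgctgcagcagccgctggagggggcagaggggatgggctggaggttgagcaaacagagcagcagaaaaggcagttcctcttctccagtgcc
APOE: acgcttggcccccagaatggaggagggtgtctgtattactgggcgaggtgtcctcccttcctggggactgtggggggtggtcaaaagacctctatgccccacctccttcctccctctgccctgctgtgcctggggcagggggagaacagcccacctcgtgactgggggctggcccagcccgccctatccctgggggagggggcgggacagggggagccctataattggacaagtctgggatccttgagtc
The AHSG window held the HNF4-type letters from 179 to 171 bases before its start, and APOA2 the FOXA core from 42 to 36 bases before, both on the opposite strand. AFP held a TATA box from 29 to 24 bases before its start and RBP4 from 31 to 26 bases before, and the VTN and APOE windows held none of the letters searched.

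Of the 33 members, 24 had an entry in the promoter table. The FOXA core, searched on both strands, stood in 2 of the 24, APOA2 and KNG1 (8.33%), against 3.24% of the 15843 protein-coding genes with an entry. The HNF4-type letters, searched as 1 exact string, stood in 1 of the 24, AHSG (4.17% against 0.417%). A share that rests on 1 gene does not show an excess. The letters TATAAA, counted anywhere in the 250 bases, stood in 5 of the 24 (AFP, CYP2E1, CYP3A4, RBP4 and TDO2), or 20.8% against 11.9%. The TDO2 match lay from 216 to 211 bases before its start, so these shares count letters and not placed TATA boxes. Member windows were also poorer in G and C, with a median of 53.6% against 62% over all windows, and held a median of 5 CpG pairs against 16. A match is a description of the letters and not evidence of a bound factor.

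The 12 RNA libraries held 240288207 reads counted in genes, from 16549330 to 26781600 each. MT1G itself had 0 reads in all 6 libraries of the DMSO and vector groups. It stood at 140, 130 and 179 normalized read counts in the overexpressing libraries and at 189, 158 and 194 with sorafenib. The libraries treated with sorafenib had reads in 24454 to 25652 genes and the DMSO libraries in 21330 to 22202, while the MT1G and vector libraries ranged from 20244 to 22220. Among 8 reference genes used by every cell, all of which passed the minimum level in both tables, 6 were lower and 2 higher with sorafenib.

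All 33 members together took 7095 of those reads. RBP4 alone took 6286 of them (88.6%), and the other members shared 809. ALB, APOB, APOH and TDO2 had 0 reads in every library, and 22 further members had between 1 and 30 reads in the 12 libraries together. Only 3 members reached a mean of 10 normalized read counts over the 6 libraries of either table (RBP4, VTN and APOE), 11 had a mean between 1 and 10 in their higher table, and 15 had reads but a mean under 1. For comparison, 25% of all genes and 63% of protein-coding genes reached a mean of 10 in the sorafenib table and 23.3% and 61.3% in the MT1G table. A normalized read count is the number of reads in a gene divided by a size factor for the library. No transcript lengths were used, so levels are not compared between genes, and each table was normalized on its own.

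**Figure D1:**
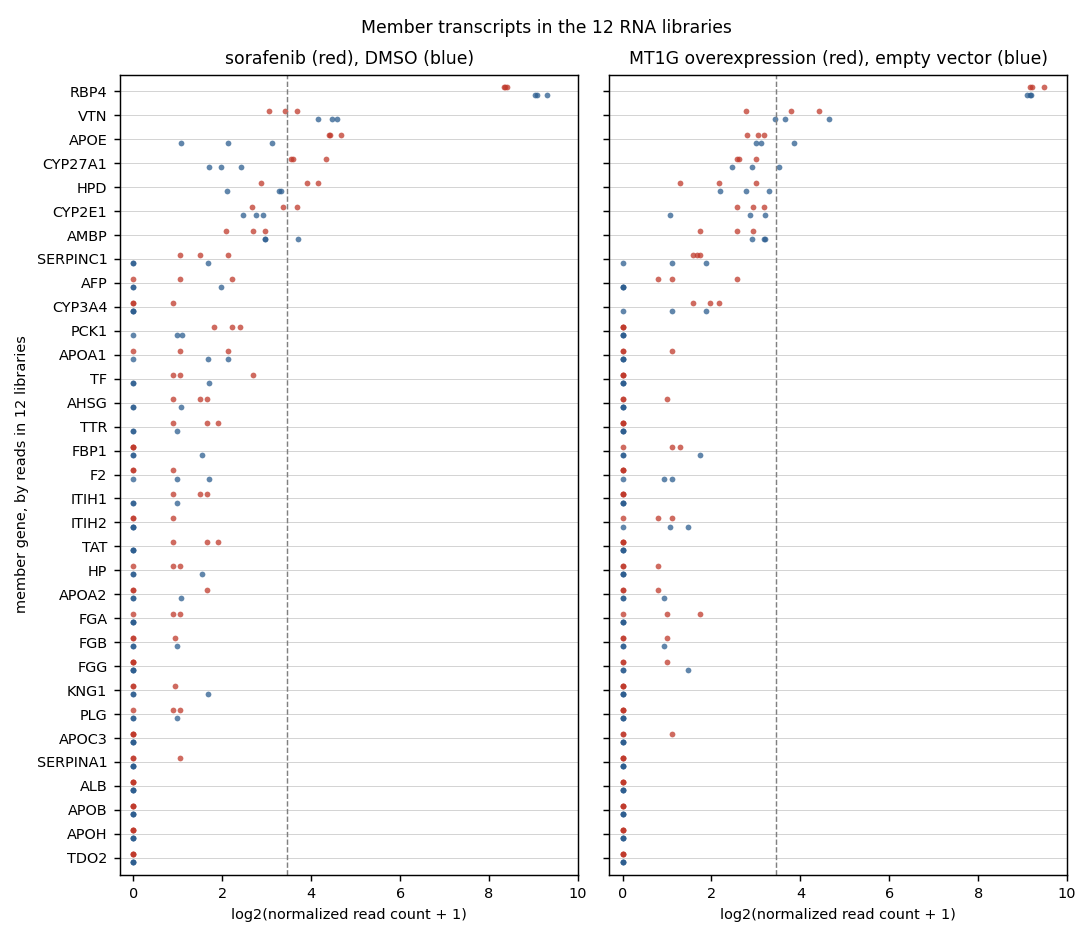
Each point is 1 library, with the 33 members ordered by their reads in 12 libraries and the x axis showing log2(normalized read count + 1). The dashed line marks the minimum mean of 10 normalized read counts. RBP4 stands apart near 8 to 10, while most members lie at 0 or at the level of a few reads in both experiments.

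The plasma carriers and binding proteins held 6587 of the members' reads. RBP4, which carries retinol from the liver, accounted for nearly all of them. VTN, the adhesive glycoprotein vitronectin, had 178 reads over 12 libraries, and AMBP, the shared precursor of alpha-1-microglobulin and the protease inhibitor bikunin, had 79. Both had reads in every library. AFP, the albumin of the fetal liver and the serum marker of hepatocellular carcinoma, had 15 reads in 6 of the 12 libraries. The iron carrier TF had 10, the mineral-binding fetuin AHSG 7, the thyroxine carrier TTR 7 and the haemoglobin scavenger HP 5. For ALB, the main protein of plasma, 0 reads in the 3 DMSO libraries allowed up to 0.051 CPM (reads scaled to a common library total). The limits were 0.0525 with sorafenib, 0.0467 with MT1G and 0.0499 with the vector, for counting error only.

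Among the apolipoproteins, APOE, a ligand of the LDL receptor family that many tissues make, held 133 of the 150 reads. APOA1, the main protein of HDL, had 11 reads, and its partner APOA2 had 5. APOC3, an inhibitor of triglyceride clearance, had 1 read in a single MT1G library. APOB, the scaffold of VLDL and LDL, and the phospholipid-binding APOH had none.

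The coagulation factors and protease inhibitors were the emptiest group by reads, with 57 over all 10 genes and 12 libraries. SERPINC1, the thrombin inhibitor antithrombin, had 20 reads in 9 libraries. Prothrombin (F2) had 6 reads, and the 3 fibrinogen chains FGA, FGB and FGG had 5, 4 and 3. The hyaluronan-binding heavy chains ITIH1 and ITIH2 had 6 each, kininogen (KNG1) and plasminogen (PLG) had 3 each, and the elastase inhibitor SERPINA1 had 1. No gene of the group reached a mean of 10 normalized read counts in either table.

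The 8 metabolic enzymes held 301 reads, of which 3 genes had most. CYP27A1, the mitochondrial sterol 27-hydroxylase of bile acid synthesis, had 91 reads. HPD, of tyrosine breakdown, had 89, and CYP2E1, which oxidises ethanol and small drugs, had 81. These 3 had reads in every library. CYP3A4, the main drug-metabolising cytochrome, had 14 reads. The glucose-making enzymes PCK1 and FBP1 had 13 and 7, the tyrosine aminotransferase TAT had 6, and the tryptophan dioxygenase TDO2 had 0.

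The label was checked against markers of liver cell types. Of 12 hepatocyte and hepatoma markers, HNF4A alone reached a mean of 10 in either table. ALB, APOB, GPC3 and FABP1 had 0 reads in all 12 libraries. HNF4A stood at 340.5 ± 9.03 normalized read counts with DMSO (SD, n = 3) and at 323 ± 20.5 with the vector (SD, n = 3). The transcripts measured in control and treated libraries of both experiments thus go against the label, and the reason was not tested.

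Markers of other cell types were measured the same way. Of 10 cholangiocyte and epithelial markers 7 passed the minimum, led by the keratins KRT8 (31717 normalized read counts with DMSO) and KRT7 (16568). KRT19 stood at or near 0 (means of 0.906 with sorafenib and 0.696 with DMSO). Their summed level was 46806 to 50154 with sorafenib, 54651 to 66058 with DMSO, 54559 to 65057 with MT1G and 62033 to 68970 with the vector. Of 12 stellate cell and fibroblast markers 8 passed, led by LUM and COL1A1, while COL1A2 and PDGFRA had 0 reads in all 6 DMSO and vector libraries. Their sum was 1330.1 to 1379 with sorafenib, 2757 to 3014 with DMSO, 2800 to 3588 with MT1G and 2408 to 2463 with the vector. Endothelial markers passed in 2 of 10 (CDH5 and VWF) in the sorafenib table and 1 of 10 in the other. Their sums were 49.0 to 68.0, 70.4 to 85.1, 40.7 to 49.7 and 46.5 to 80.0 in the same order. Leukocyte markers passed in 1 of 10 (CD14) and 0 of 10, with CD3E at 0 reads throughout. Their sums were 32.1 to 36.3, 9.64 to 11.2, 5.96 to 23.3 and 8.06 to 12.8. CD14 passed through its sorafenib libraries (means of 15.4 with sorafenib and 6.28 with DMSO). Of all genes with reads and a mean under 10, 68.6% had the higher mean with sorafenib.

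**Figure D2:**
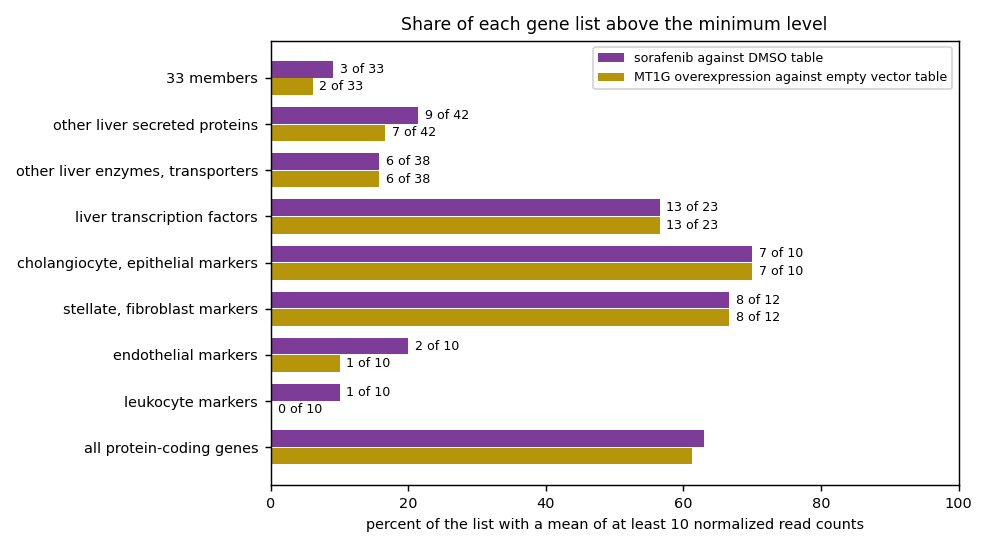
Bars give the percent of each gene list with a mean of at least 10 normalized read counts over the 6 libraries of a table, from 0 to 100, with the counts at the bar ends. The 33 members reached 3 of 33 and 2 of 33, against 13 of 23 liver transcription factors in both tables.

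Sorafenib was compared with DMSO to ask how the members that were present changed. RBP4 fell. APOE, which passed the minimum level through its sorafenib libraries, stood higher. VTN was lower in a call that 1 library or another test could end. RBP4 had 324, 335 and 326 normalized read counts in the sorafenib libraries and 539, 521 and 625 in the DMSO libraries, so the groups did not overlap, as was so for 73% of all genes tested. Its mean of 328 ± 6.02 (SD, n = 3) was 0.587 of the DMSO level of 562 ± 56.0 on the log2(value + 1) scale, a log2 change of -0.77 (SE 0.089, limma adjusted p = 1e-06). In bulk RNA, fewer cells carrying a transcript and less of it per cell cannot be told apart. Among the 8 reference genes the median was -0.44, and the part of such a shift in the RBP4 value was not tested. VTN stood at 11.8, 7.25 and 9.61 with sorafenib and at 16.9, 21.2 and 22.9 with DMSO, also without overlap. Its log2 change was -1.03 (SE 0.34, limma adjusted p = 0.0136). The adjusted p was 0.0505 with DESeq2 and 0.0535 with limma without sorafenib library 2.

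APOE stood at 24.5, 19.9 and 20.3 with sorafenib against 3.37, 7.71 and 1.09 with DMSO. These values rest on 70 reads against 12. The log2 change was 2.38, 5.22-fold (SE 0.49, 95% interval 1.34 to 3.43, limma adjusted p = 0.000416), and every sorafenib library lay above every DMSO library. Over the alternatives tried it was called throughout, with log2 changes from 1.61 with a pseudocount of 5 to 2.89 without DMSO library 2. APOE passed the minimum through its sorafenib libraries and VTN through its DMSO libraries. A gene that passes in that way had to differ. The adjusted p-values of APOE and VTN and their calls over the alternatives are thus not offered as support. Nor is the count of 1 member higher and 2 lower among 3 tested. Over all 14915 genes tested, 70.3% passed the threshold, 34.4% higher and 35.8% lower, so most genes at these levels were called. RBP4 kept its sign and its side of the threshold in all 15 alternatives tried, with log2 changes from -0.82 to -0.69.

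**Figure D3:**
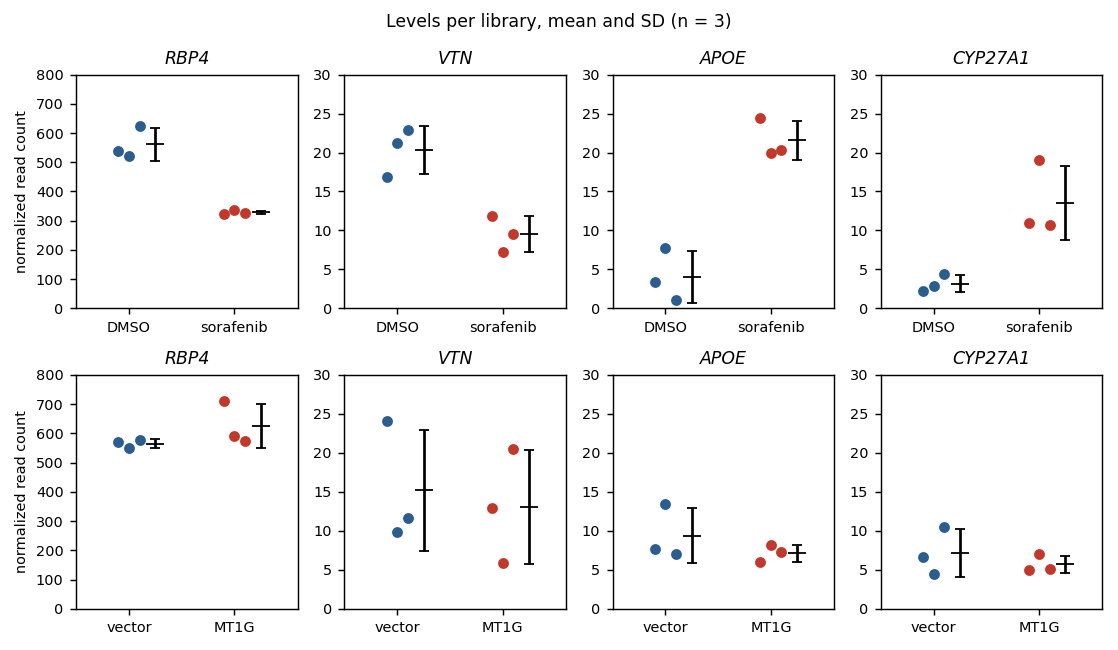
Points are normalized read counts per library for RBP4, VTN, APOE and CYP27A1, with the mean and SD of 3 libraries beside them, for sorafenib against DMSO (upper row) and MT1G overexpression against the vector (lower row). The RBP4 axis runs from 0 to 800 and the others from 0 to 30. Sorafenib and DMSO points separate in all 4 upper panels, and the points of the lower panels overlap. With sorafenib, groups did not overlap for 73% of all genes tested and 18.5% of genes with reads and a mean under 10. APOE and VTN passed the minimum level through the group where they stood higher, and CYP27A1 was added after its values were seen.

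Below the minimum level, 3 enzymes had groups that did not overlap. CYP27A1 had 10.97, 19.03 and 10.7 normalized read counts with sorafenib against 2.25, 2.89 and 4.37 with DMSO, or 44 reads against 9. It was not tested with the minimum of 10. Without that filter, where 39.3% of 31858 genes passed, its log2 change was 1.79 (SE 0.49, limma adjusted p = 0.00113). A run of edgeR on recovered reads with a minimum mean of 1 was added after values were seen. There 56.4% passed, and the log2 change of CYP27A1 was 2.05 (edgeR adjusted p = 0.00147). The authors' deposited table gave it a log2 change of 2.10 with an adjusted p of 0.0217. PCK1 had 11 reads with sorafenib and 2 with DMSO, and TAT had 6 against 0. Without the filter the limma adjusted p was 0.0617 for PCK1 and 0.0441 for TAT. These 3 were picked after their values were seen, because their groups did not overlap. A gene picked in that way had to differ, so these adjusted p-values are not offered as support.

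Those 3 were among 24 members with reads and a mean under 10, while 18.5% of all such genes had groups that did not overlap. HPD at 16.9, 6.34 and 13.9 against 9.0, 8.68 and 3.27 overlapped between the groups. CYP2E1 at 9.28, 11.8 and 5.34 against 4.50, 5.78 and 6.55 overlapped too, as did AMBP at 6.75, 5.44 and 3.2 against 6.75, 6.75 and 12. AFP had 5 reads with sorafenib and 3 with DMSO.

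Faint members tended to have more reads after sorafenib, and so did faint genes in general. Of the 24 members with reads and a mean under 10, 17 (70.8%) had the higher mean with sorafenib, against 68.6% of the 16943 genes of that level. Leaving RBP4 out, the members took 4.89 to 5.55 CPM with sorafenib and 2.52 to 3.23 with DMSO. With RBP4, they took 23.3 to 24.3 and 28.8 to 32.1. The summed levels were 36.3 to 43.5 normalized read counts against 14.2 to 20.2 for the enzymes and 19.9 to 27.9 against 4.37 to 7.71 for the apolipoproteins, led by CYP27A1, HPD and APOE. For the coagulation group they were 5.44 to 7.6 against 2.25 to 4.37. The wider set of genes with reads in the sorafenib libraries, given above, moved with these sums, and its part in them was not tested.

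For sorafenib the authors' deposited table gave an adjusted p to 14 members. It called APOE (log2 change 2.38) and CYP27A1 higher and RBP4 (-0.77) lower, and gave VTN -1.09 with an adjusted p of 0.0943. It called 46.3% of all genes with an adjusted p.

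The other liver genes, from lists chosen with earlier results of these data known, showed what else of the programme was measurable. Among 23 liver transcription factors 13 were tested, of which 9 were lower and 2 higher with sorafenib, where 70.3% of all genes tested were called, 35.8% lower and 34.4% higher. Their median log2 change was -0.53, against -0.02 over all genes tested, -0.44 for the reference genes (6 of 8 lower), -0.46 for the epithelial markers (5 of 7 lower, 0 higher) and -0.83 for the stellate markers (4 of 8 lower, 2 higher). RXRA, the partner of many nuclear receptors, fell from 3869 ± 228 to 1528 ± 72.6 normalized read counts (SD, n = 3; log2 change -1.34, limma adjusted p = 2.2e-11). CEBPB fell by 0.42 and the GATA factor GATA4 by 0.53 on the log2 scale (limma adjusted p = 2e-05 and 2.4e-06). HNF4A, the nuclear receptor at the centre of the hepatocyte circuit, fell to 117 ± 31.8 (log2 change -1.56, SE 0.15, limma adjusted p = 1.3e-07).

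Of 42 other liver secreted proteins 9 were tested, with 5 lower and 2 higher (4 lower with TMM factors, DESeq2 or edgeR) and a median of -0.30. The complement protein C3 fell by 0.42 and the anticoagulant protein S (PROS1) by 1.49 on the log2 scale. Of 38 other liver enzymes and transporters 6 were tested, with 3 lower and 2 higher and a median of -0.69. Both counts stand against the same 70.3% of all genes called. The urea cycle enzymes CPS1 and ASS1 fell by 1.38 and 0.90, and the bile canaliculus transporter ABCC2 by 1.31. CPS1 stood at 6588 ± 151 with sorafenib and 17159 ± 591 with DMSO (SD, n = 3).

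MT1G overexpression was compared with the empty vector in the same way, and no member passed the threshold. RBP4 stood at 711, 589.6 and 575 normalized read counts with MT1G and at 569, 549 and 578 with the vector. The groups overlapped, while those of 39.4% of all genes tested did not, and the log2 change was 0.14 (SE 0.10, 95% interval -0.07 to 0.35, limma adjusted p = 0.336). VTN stood at 12.9, 5.81 and 20.5 against 24.1, 9.85 and 11.7, with a log2 change of -0.25 (SE 0.46, 95% interval -1.21 to 0.70, limma adjusted p = 0.729). Its sign turned to 0.19 without MT1G library 2 and to 0.11 without vector library 1. These were the 2 members tested, of which limma, edgeR and DESeq2 called 0, and 0 had an unadjusted p under 0.05 in limma. Over the 13914 genes tested, 22.8% passed. An interval reaching 0.35 for RBP4 does not show that its level was the same in both groups.

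APOE stood at 5.96, 8.14 and 7.32 with MT1G against 7.68, 13.4 and 7.0 with the vector, under the minimum level and with overlap. CYP27A1 had 18 reads against 20, CYP2E1 21 against 15, HPD 12 against 17 and AMBP 16 against 22. AFP had 5, 1 and 1 reads in the MT1G libraries and 0 in the 3 vector libraries. It was the member without overlap among 19 with reads and a mean under 10, where 7.09% of all such genes had none. Its adjusted p was 0.111 with limma without the filter and 0.128 with edgeR at a minimum mean of 1, where 11.9% and 15.6% of all genes passed. Of those 19 members 11 (57.9%) had the higher mean with MT1G, against 54.5% of all genes at that level. Another 12 members, among them TTR, TF, PCK1 and TAT, had 0 reads in all 6 libraries of this table. The authors' deposited table gave an adjusted p to RBP4 (0.418) and VTN (0.883) alone among the members, while it called 21% of all genes.

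In the related lists the same comparison called 1 transcription factor higher and 4 lower of 13 tested, with a median of -0.03, where 22.8% of all genes tested were called, 11.5% higher and 11.3% lower. CEBPA, which holds hepatocytes in the differentiated state, fell from 825 ± 76.8 to 421 ± 90.0 normalized read counts (SD, n = 3; log2 change -0.99, limma adjusted p = 0.000198). HNF4A fell to 215 ± 13.9 (log2 change -0.59, limma adjusted p = 0.00126). CEBPB changed by 0.30 and RXRA by -0.28 on the log2 scale (limma adjusted p = 0.0174 and 0.0236). Without vector library 1 or 2 the adjusted p of CEBPB was 0.0525 or 0.118. For RXRA it was 0.0717 without MT1G library 2 and 0.0729, 0.0778 and 0.0876 without vector library 1, 2 or 3. The secreted list had 2 higher and 2 lower of 7 tested, with PROS1 higher by 0.55 and the apolipoprotein APOC1 at -0.74. The enzyme list had 1 each way of 6 tested, ASS1 at -0.55 and ABCC2 at 0.27. The APOC1 call was lost with DESeq2 (adjusted p = 0.0628), without MT1G library 2 (0.0682) and without vector library 1, 2 or 3 (0.0567, 0.0549 and 0.103). The ABCC2 call was lost without vector library 1, 2 or 3 (limma adjusted p = 0.062, 0.0788 and 0.0731).

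ATAC-seq gave 131245 and 156770 peaks in the DMSO libraries and 139304 and 135681 with sorafenib. ATAC-seq marks accessible DNA by the insertion of a transposase. Peaks that shared at least 1 bp were merged into regions, called shared when all 4 libraries had a peak there, gained when both sorafenib libraries and no DMSO library did, and lost in the reverse case. Of the 24 members with a known start site, 12 (50%) had a region within 2 kb of it in any library, against 79.8% of 15843 protein-coding genes. A shared region lay there for 7 (29.2% against 68.9%), namely APOA2, APOE, FGB, HPD, RBP4, TF and VTN. A gained region lay there for 0 of 24 (4.04% of all genes) and a lost region for 1, AFP (4.17% against 5.08%). No single region was tested, and these counts are descriptions.

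Of the 3 members with a mean of at least 10, RBP4 and VTN had shared regions over a start site and APOE had none there. RBP4 had a shared region of 832 bp (chr10:93600893-93601724) over 2 of its 3 listed starts, including the one whose promoter is printed above. The authors' caller gave it fold enrichments of 6.24 and 9.43 with DMSO and 6.84 and 7.01 with sorafenib, values used here only to describe each list. VTN had a shared region of 726 bp over its start (chr17:28370067-28370792; fold enrichments 7.77, 6.75, 3.22 and 3.92 in the same order) and a second one 863 bp away that also held the start of SARM1. HPD had shared regions over its distal start, which lay with that of PSMD9, and 76 bp from its other start. APOE had no shared region nearer than 1600 bp from its first start.

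For the rest, open DNA lay off the start or belonged to a neighbour as well. One shared TF region covered a distal start that lay with that of TOPBP1. Another, chr3:133663647-133664057, lay 1649 bp from that start and held no listed start of another gene. Its fold enrichments were 6.10 and 8.24 with DMSO and 6.59 and 5.54 with sorafenib. The other listed start of TF (chromosome 3, position 133746393) had no region within 2 kb. The APOA2 region, 1798 bp away, held the start of TOMM40L, and the FGB region lay 1709 bp away. The lost region of AFP (chr4:73434408-73434662) lay 1559 bp before its start, with fold enrichments of 4.62 and 8.55 in the DMSO libraries. Peaks in fewer libraries lay near AHSG and F2 (3 each) and, in single sorafenib libraries, near CYP2E1 and SERPINA1. Besides the regions above, peaks in a single DMSO library lay near the starts of APOE (replicate 2) and RBP4 (replicate 1). The ALB start had no region within 2 kb in any library, nor had those of AMBP, APOH, CYP27A1, CYP3A4, FBP1, FGA, FGG, ITIH1, KNG1, PLG and TDO2. CYP27A1 and AMBP thus had reads in every RNA library without a peak at the listed start. Farther inside the CYP27A1 span lay a shared region (chr2:218806257-218806950). Its fold enrichments were 19.3 and 23.6 with DMSO and 14.8 and 12.3 with sorafenib.

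**Figure D4:**
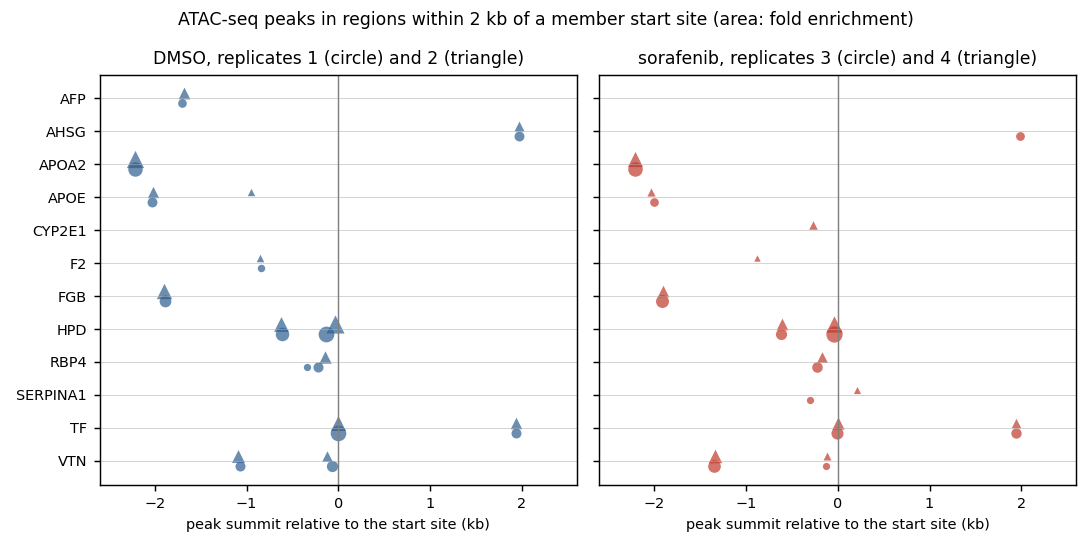
Each mark is the summit of a peak in a region within 2 kb of a member's start site, in kb from that start with negative values upstream, for DMSO (left) and sorafenib (right). Circles and triangles are the 2 replicates, and the area follows the fold enrichment. For a gene with several starts, the distance is to the start nearest to the region. For the shared RBP4 region, which covers 2 starts, it is to the one whose promoter is printed. AFP has marks in both DMSO libraries and none with sorafenib, and RBP4, VTN, HPD and TF have summits close to 0 in all 4 libraries.

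Over the whole gene span with 2 kb on either side, a window added after the data were seen and open to all 33 members, 27 had a region in any library (81.8% against 90.1% of genes). A shared region lay in 21 (63.6% against 80.4%). Gained regions lay in 3 (CYP2E1, ITIH1 and TF; 9.09% against 19.7%) and lost ones in 7 (AFP, F2, FGB, KNG1, PLG, TF and TTR; 21.2% against 29.7%). The span of TF, 134644 bp long, also holds SRPRB, so its regions cannot be assigned to TF alone. Long spans collect more regions than short ones, and the members' spans ran from 1337 bp (APOA2) to TF.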

How the data were processed

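Messenger RNA selected by poly(A) was sequenced in 12 libraries (groups of 3) and open chromatin in 4 (groups of 2). Per the submitters' processing notes, the genome was hg38 and the tools included MACS2 2.2.7.1, Bowtie2 2.4.1, SAMtools and Picard, besides HISAT2 1.1.0, cutadapt, DESeq2 and featureCounts 1.6.1. Their roles and the strand use in counting are not given in the sources used here. The RNA signal values deposited by the authors were normalized read counts per gene, reads divided by a size factor for each library. Dividing each column by its smallest value above 0 gave whole reads for 100% of genes within 0.001. The log2 fold change, its standard error, the test score, the p-value and the adjusted p-value in the comparison tables were deposited by the authors. In the peak lists deposited by the authors, called per library, the score, the fold enrichment (a ratio), the −log10 p and the −log10 q were those of the peak caller.

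Groups came from the sample titles, and library numbers are those of the table columns. The members and lists were chosen with earlier results of these data known. Genes whose mean over 6 libraries was at least 10 entered limma 3.58.1 (R 4.3.3; trend, robust, two-sided) on log2(normalized read count + 1), which understates the change of low genes, with Benjamini-Hochberg adjustment over all genes tested and a threshold of 0.05. Each table used its own 6 libraries. Libraries of 1 group differed beyond counting noise, with a chi-square per gene of 3.17 to 19.8. A group at 0 was given the limit of 3 reads over its libraries. Members with a mean of at least 10 in either table were described in full, the others by reads, and up to 3 called genes with the highest mean were named per related list and the 2 most abundant per marker list (some genes and letters are not reported here); CYP27A1, PCK1, TAT, AFP, HPD, CYP2E1 and AMBP were given in more detail after their values were seen. Start sites and promoter bases came from RefSeq (GRCh38.p14). APOC3, ITIH2, APOA1, HP, SERPINC1, TAT, APOB, PCK1 and TTR had no promoter entry. Alternatives were other pseudocounts, minimum levels, TMM factors, DESeq2 1.42.0 and edgeR 4.0.16 on recovered reads, a replicate block, each library left out, and other peak windows and cutoffs. The edgeR run with a minimum mean of 1 and the gene span window were added after values were seen. The test was also run on simulated data with 200 changed genes. That simulation gave every gene the same spread beyond counting noise, so it does not show how the test performs on these libraries.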

Additional observations from a re-analysis of the deposited data

How the results depend on the processing

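Of 24 results for genes picked by the naming rule, 18 kept their direction and side of the threshold in every alternative run, 5 lost their call in some and 1 turned sign. VTN under MT1G overexpression turned from -0.25 to 0.19 without MT1G library 2 and to 0.11 without vector library 1, neither called, and reached -0.63 without MT1G library 3. The members called with sorafenib were 3, and became 5 with no filter on low values (27 members tested, 39.3% of all genes called) and 1 with a minimum mean of 100, where fewer genes were tested. Leaving out each library gave 2 to 3. With MT1G the count of members was 0 throughout, also with every library left out. Members at a mean of at least 10 numbered 3, against 14 at a minimum of 1 and 1 at a minimum of 100. Calls over all genes under MT1G overexpression, 3179, ranged from 1771 (without vector library 3) to 3831 when a library was left out, with 1886 without vector library 2, and those with sorafenib, 10484, from 9580 to 10674. Shared regions lay near the starts of 7 of 24 members (29.2% against 68.9% of genes). There were 4 within 500 bp (16.7% against 64.3%) and 15 within 10 kb (62.5% against 80.4%). Over the gene span there were 21 of 33 (63.6% against 80.4%). Leaving out a library gave 7 to 8 of 24 shared (69.0% to 70.0% of genes). It gave 0 to 2 gained (4.94% to 9.15% of genes) and 2 lost (6.94% to 11.4% of genes). The replicate block called 3 members and 10193 genes with sorafenib, and 0 members and 3257 genes with MT1G. The correlations of same-numbered deviations ran from -0.06 to 0.03 with sorafenib and from -0.14 to 0.04 with MT1G. Those of differently numbered deviations ran from -0.06 to 0.08 and from -0.06 to 0.13. With groups of 3 libraries, such values cannot decide whether the numbers pair the samples. The 22 members with 1 to 30 reads over 12 libraries stayed under the minimum level, and without the filter TAT was called at 6 reads (limma adjusted p = 0.0441).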
